A study of Rattus norvegicus with 7 samples.

Results

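The 10 genes described here are 5 cytosolic chaperone genes, Hsp90ab1, Hsp90aa1, Hspa8, Hsph1 and Dnajb1, and 5 immediate early genes, Fos, Jun, Junb, Egr1 and Atf3. They were taken by symbol from the 25399 genes of the deposited feature tables, and each symbol belonged to 1 gene. The data are unique molecular identifier (UMI) counts from single nuclei of archived kidneys of HSRA rats, a line in which some animals are born with a single kidney. All rats were 4 weeks old. The 1-kidney group had 3 libraries and the 2-kidney group had 4, and each library was taken as 1 animal. Nuclei came from a central piece with cortex and medulla, and the labels state neither how much of each a piece held nor the sex of the animals. The genes were proposed with results of the 1-kidney and 2-kidney comparison known, so their values in that comparison are a description and support nothing. They were chosen by UMI levels in the libraries of each group; whether levels over cell types also entered the choice is not recorded.

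Cytosolic chaperones bind unfolded or maturing proteins and release them in cycles driven by ATP. Hsp90ab1 encodes the constitutive and Hsp90aa1 the more inducible cytosolic HSP90. Hspa8 encodes the constitutive HSP70, Hsph1 an HSP110 that exchanges nucleotide on HSP70, and Dnajb1 an HSP40 that hands clients to HSP70. Genes of this kind carry heat shock elements, inverted repeats bound by HSF1, the factor that raises them when proteins unfold. Immediate early genes are switched on within minutes of a growth signal, stretch, injury or handling of a tissue, with no new protein needed. Fos, Jun and Junb encode subunits of the AP-1 transcription factor, Egr1 a zinc finger factor of the growth response, and Atf3 a factor of the stress response that dimerises with Jun proteins. Their messages are short-lived, so the level in archived tissue is a snapshot.

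RefSeq promoters on the GRCr8 build were at hand for 6 of the 10 genes. The 250 bases before each start were searched on both strands, and bases outside this window were not. Stretches with matches are shown for 4 genes, with and without a heat shock match in the window, and that of Dnajb1 is not shown. Capitals mark the matches, and all bases lie upstream of the annotated start.

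Hspa8 (chr8:50080291-50080481, plus strand): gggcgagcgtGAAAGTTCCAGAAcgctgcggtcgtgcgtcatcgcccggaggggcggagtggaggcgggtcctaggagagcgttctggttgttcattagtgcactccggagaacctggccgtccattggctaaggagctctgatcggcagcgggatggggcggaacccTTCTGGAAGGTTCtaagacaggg
Hsph1 (chr12:10427253-10427354, plus strand): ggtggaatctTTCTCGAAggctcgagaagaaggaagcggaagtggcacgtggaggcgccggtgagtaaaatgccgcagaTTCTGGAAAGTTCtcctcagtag
Hsp90ab1 (chr9:22930233-22930391, plus strand): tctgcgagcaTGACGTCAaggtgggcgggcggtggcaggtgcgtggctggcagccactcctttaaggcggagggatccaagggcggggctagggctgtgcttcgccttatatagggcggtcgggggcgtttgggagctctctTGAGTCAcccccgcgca
Egr1 (chr18:26736963-26737014, plus strand): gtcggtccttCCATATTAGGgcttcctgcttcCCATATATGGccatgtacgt

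Hspa8 held 2 copies and Hsph1 held 1 copy of a run of 3 heat shock units, a run present in 0.663% of the 33469 promoters. Such a run is the shorter run of 2 units (GAANNTTC or TTCNNGAA) with a further unit at the same spacing. The shorter run was in 13.5% of promoters. It stood once more in Hsph1, and it was the match in Dnajb1. Hsp90ab1 had neither run in this window. It held a cyclic AMP response element (TGACGTCA, 1.59% of promoters) and an AP-1 site (TGANTCA, 6.34%). Egr1 held 2 CArG boxes, the sites of serum response factor, which 1.5% of promoters held. Junb had none of these letters in the window. A match is a description of the sequence and not evidence that the site is used.

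The libraries held 2263, 4448 and 4300 retained nuclei in the 1-kidney group and 3933 to 5952 in the 2-kidney group, with 5581726 to 27069633 UMIs. Median depth per nucleus was 1711 ± 263 UMIs with 1 kidney and 2179 ± 262 UMIs with 2 (SD, n = 3 and 4, two-sided exact permutation p = 0.114). Mitochondrial UMIs were 1.20% ± 0.431 and 0.963% ± 0.526 (SD, n = 3 and 4, exact permutation p = 0.571). With 3 and 4 libraries this test cannot give a p under 0.05, so neither p shows that the groups were alike. Any 2 libraries shared 3 to 14 barcodes. A code in the library names, of unstated meaning, puts 2-kidney replicates 3 and 4 in set P1117B and the other 5 libraries in set P1117. Set P1117B held no 1-kidney library and had the lowest mitochondrial shares, 0.66% and 0.379%, so results are also given for set P1117 alone. Clusters were built without the members and named from markers, and 10 named classes had at least 50 nuclei in every library. Transcripts of the proximal tubule were counted everywhere. Slc34a1, its phosphate transporter, was at 135 and 345 per 10000 UMIs in the 2 proximal tubule clusters, at 113 in endothelium, at 52.1 to 72.7 in the thick ascending limb clusters and lowest in podocytes, at 31.8. Free RNA was not subtracted, and its part in the class differences below was not tested.

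Across all retained nuclei, 3 chaperone genes were higher in every 1-kidney than in every 2-kidney library. Of all genes tested 8.06% were higher in this way and 10.7% were lower. These sums include the nuclei of unnamed clusters, which held 45.2% of UMIs. Values are given as CPM, the UMIs of a gene per 1000000 UMIs of the same nuclei. Hsp90ab1, the constitutive HSP90, was at 513, 313 and 365 CPM in 1-kidney replicates 1 to 3. In 2-kidney replicates 1 to 4 it was at 278, 203, 238 and 214 CPM. The groups did not overlap, and 1-kidney replicate 1, the library with the fewest UMIs, was the highest of all. The log2 fold of Hsp90ab1, 1-kidney over 2-kidney, was 0.80 ± 0.18 (SE), a 1.74-fold difference, with an adjusted p of 0.162 by edgeR. Without 1-kidney replicate 1 the log2 fold was 0.57.

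Hspa8, the constitutive HSP70, was at 247, 184 and 199.9 CPM in the 1-kidney libraries and at 174, 143, 135 and 105 CPM in the 2-kidney libraries. Again the groups did not overlap, with a log2 fold of 0.62 ± 0.17 (SE). Dnajb1, the HSP40 partner, was at 11.3, 7.39 and 7.67 CPM against 5.81, 5.60, 3.60 and 4.36 CPM, also without overlap, and its log2 fold was 0.87 ± 0.23 (SE). These values rest on 33890 UMIs of Hsp90ab1, 19242 of Hspa8 and 712 of Dnajb1. Hsph1, the HSP110, was at 191, 105 and 145 CPM in the 1-kidney libraries and at 83.6, 93.6, 107 and 139 CPM in the 2-kidney libraries. The ranges overlapped, since the 2 libraries of set P1117B stood above the other 2-kidney libraries for this gene. Hsp90aa1, the inducible HSP90, was at 4.66 to 7.84 CPM in the 1-kidney and 5.36 to 6.68 CPM in the 2-kidney libraries, and its log2 fold was 0.04 ± 0.21 (SE). That fold was -0.19 without 1-kidney replicate 3 and -0.01 without 2-kidney replicate 2.

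The immediate early genes were lowest in the libraries of set P1117B, and none separated the 1-kidney from the 2-kidney group. Fos was at 12, 6.97 and 25.4 CPM in the 1-kidney libraries. It was at 31.1 and 18.1 CPM in 2-kidney replicates 1 and 2, and at 2.27 and 6.61 CPM in replicates 3 and 4, those of set P1117B. Egr1 showed the same split, with 40.1, 33.1 and 42.4 CPM in the 1-kidney libraries, 53.7 and 64.9 in 2-kidney replicates 1 and 2, and 10.2 and 20.8 in replicates 3 and 4. For Egr1 the 1-kidney values lay between the 2 sets of 2-kidney values and overlapped neither. Junb, an AP-1 subunit, was at 12.4, 10.8 and 12.7 CPM against 12.9, 17.2, 5.46 and 7.09 CPM. Jun, its partner, was at 159, 92.9 and 123 CPM against 99.9, 139, 66.8 and 51.1 CPM. Atf3 was at 12.7, 3.18 and 5.74 CPM against 5.68, 6.01, 1.62 and 2.96 CPM. Its log2 fold of 0.80 ± 0.52 (SE) was 0.20 without 1-kidney replicate 1, the library with the highest value.

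Of the 10 members, 3 did not overlap between the groups with the 1-kidney group higher, beside 8.06% of all 14940 genes tested, and 0 with it lower, beside 10.7%. No member passed an adjusted p of 0.05 in edgeR's quasi-likelihood test with Benjamini-Hochberg adjustment, and neither did any other gene, which makes 0% called. Before adjustment 3 members and 3070 genes (20.5%) had a p under 0.05. DESeq2 called 485 genes, among them Hsp90ab1 and Dnajb1. Nothing about the members is read from these shares, because the comparison was used to choose them. In sums over all nuclei, a difference in the mix of cell types and a difference per nucleus cannot be told apart.

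**Figure D1:**
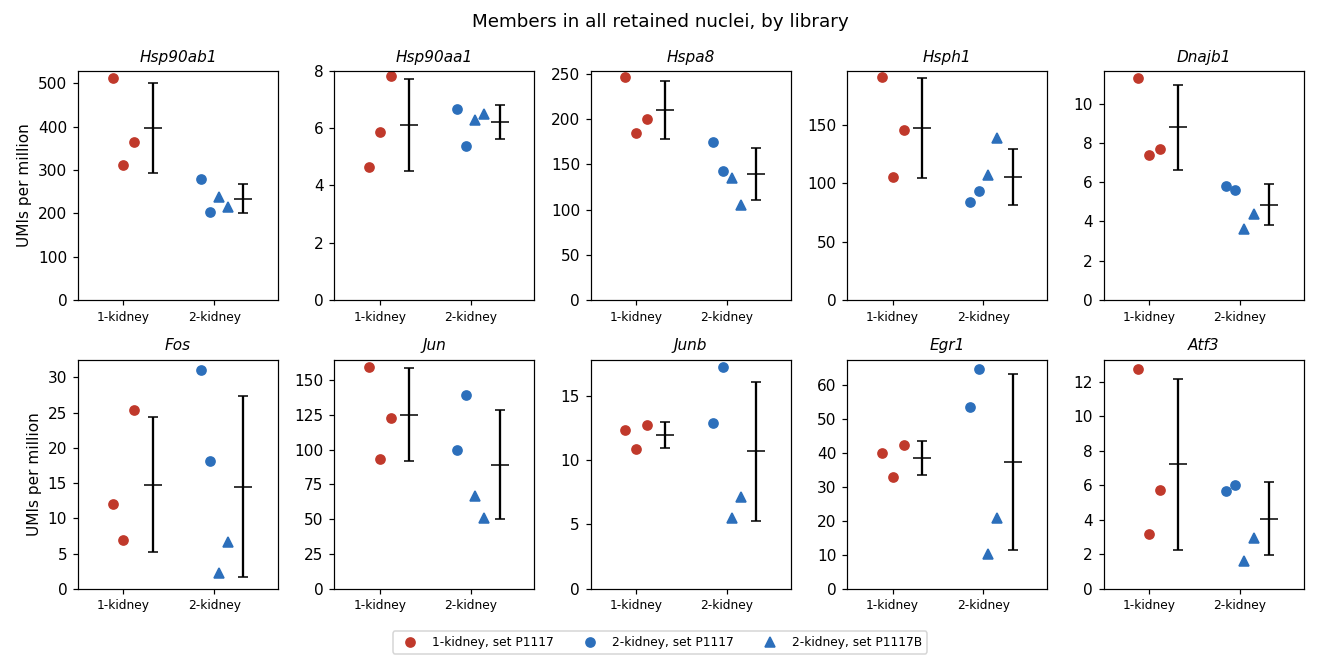
Each panel plots 1 gene in all retained nuclei, as CPM per library (points, 3 of 1-kidney and 4 of 2-kidney animals), with the group mean and SD beside them in black and triangles for set P1117B. Hsp90ab1, Hspa8 and Dnajb1 show groups that do not overlap, and for Fos, Jun, Junb, Egr1 and Atf3 the triangles are the lowest points.

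Within set P1117, 4 chaperone genes were higher in all 3 1-kidney than in both 2-kidney libraries: Hsp90ab1, Hspa8, Hsph1 and Dnajb1. Over all genes tested 12.5% did so. Hsp90ab1, Hspa8 and Dnajb1 did not overlap over all libraries, so they could not overlap within the set, and only Hsph1 was added. Egr1 and Junb were lower in all 3 1-kidney libraries, as were 16.5% of all genes. For Junb the gap was small (12.7 against 12.9 CPM at the closest). The mean of Hsp90ab1 was 1.65 times that of the 2-kidney libraries of the set, and 1.702 times that of all 4. The log2 fold of Egr1 changed from 0.08 ± 0.50 (SE) with all libraries to -0.60 without set P1117B, that of Fos from 0.12 ± 0.71 (SE) to -0.66, and that of Junb from 0.20 ± 0.35 (SE) to -0.31. That of Jun changed from 0.51 ± 0.32 (SE) to 0.08, and that of Atf3 from 0.80 ± 0.52 (SE) to 0.21. Hsph1 went the other way, from 0.49 ± 0.23 (SE) to 0.75. In 7 of the 10 members, including all 5 immediate early genes, both libraries of set P1117B lay below all 5 of set P1117, which 25.4% of all genes did, while 0 members lay above them all, as 22.9% of genes did. The mitochondrial share was lowest in the same 2 libraries, and its part in this pattern was not tested. Set P1117B has no 1-kidney animal, so the set and the 2-kidney state cannot be told apart in it.

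**Figure D2:**
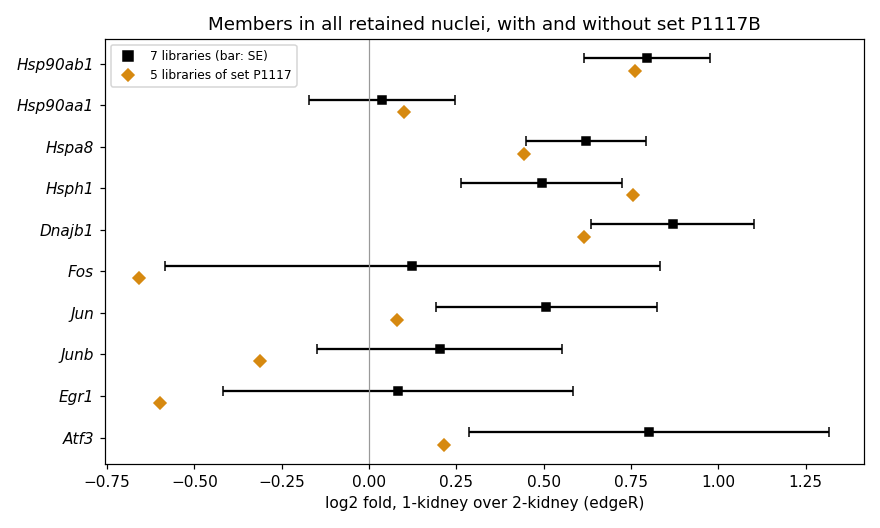
The log2 fold of each gene in all retained nuclei, 1-kidney over 2-kidney, is plotted with all 7 libraries (squares, bars for the SE) and with the 5 libraries of set P1117 (diamonds). The chaperone genes keep folds above 0 in both, as do Jun and Atf3, although that of Hsp90aa1 with all 7 libraries is within its SE of 0. Fos, Junb and Egr1 move from above 0 to -0.66, -0.31 and -0.60.

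Hsp90ab1 had a log2 fold above 0 in each of the 10 classes, from 0.41 ± 0.23 (SE) in connecting tubule to 1.10 ± 0.28 (SE) in principal cells. Its groups did not overlap in 6 of them: endothelium, fibroblasts, intercalated cells, principal cells, proximal tubule and thick ascending limb. The share of all genes higher in every 1-kidney library was 5.49% in endothelium, 8.3% in fibroblasts, 4.69% in intercalated cells, 10.2% in principal cells, 6.28% in thick ascending limb and 7.44% in proximal tubule. It was 7.68% in connecting tubule, 6.84% in distal convoluted tubule, 4.5% in podocytes and 4.81% in thin limb, where the groups overlapped for Hsp90ab1. In principal cells, the water-reabsorbing cells of the collecting duct, Hsp90ab1 was at 500.2, 211 and 269.7 CPM against 182, 139, 134 and 133 CPM. Hspa8 did not overlap there either, by 99.73 against 99.71 CPM at the closest, with a log2 fold of 1.04 ± 0.33 (SE). In endothelium the gap was narrow, with a lowest 1-kidney value of 251 and a highest 2-kidney value of 249.5 CPM. Within set P1117 the ratio of means in these 6 classes was 1.46 to 2.04, and no further class lacked overlap. The set holds the same 1-kidney libraries and a part of the 2-kidney libraries. Groups apart over all libraries are therefore apart in the set by construction.

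In the proximal tubule, which reabsorbs most of the filtrate, 4 of 8 members tested did not overlap, with the 1-kidney group higher, beside 7.44% of 10947 genes. Hsp90ab1 was at 459, 272 and 317 CPM against 214, 147, 201 and 181 CPM there, a log2 fold of 0.90 ± 0.20 (SE). Hspa8 was at 304, 190 and 259 CPM against 175, 175, 162 and 119 CPM. The others were Dnajb1, at 8.71, 4.47 and 6.76 CPM against 2.65 to 3.895 CPM, and Junb, whose lowest 1-kidney value was 7.98 and highest 2-kidney value 7.95 CPM. The log2 fold of Junb, 0.73 ± 0.37 (SE), was 0.25 without set P1117B. None passed the threshold in edgeR with Benjamini-Hochberg adjustment, nor did any other gene in this class (0% called, 1779 genes at an unadjusted p under 0.05), while DESeq2 called 110 genes with Hsp90ab1 among them. The class held a Slc7a13-high and a Slc5a12-high cluster, markers of the straight and the convoluted part. The Slc5a12-high cluster was 16.8%, 13.8% and 16.9% of the class in the 1-kidney libraries and 21.2%, 34.3%, 53.4% and 46.4% in the 2-kidney libraries, and the groups did not overlap. The part of this mix in the class values was not tested beyond the values within each cluster. Within the Slc7a13-high cluster 1 of 8 members tested did not overlap, beside 6.88% of genes, and within the Slc5a12-high cluster 1 of 4, beside 5.28%. In both it was Hsp90ab1, with log2 folds of 0.84 ± 0.21 and 0.89 ± 0.25 (SE). Hspa8 overlapped in both, with 0.53 ± 0.22 and 0.73 ± 0.25 (SE). Dnajb1 and Junb overlapped in the Slc7a13-high cluster and had too few UMIs to be tested in the Slc5a12-high cluster.

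Fibroblasts gave the only call, Hspa8. It was at 208, 193 and 142 CPM in the 1-kidney and at 123, 61.3, 87.9 and 68.7 CPM in the 2-kidney libraries. The log2 fold was 1.03 ± 0.27 (SE) with an adjusted p of 0.0374 by edgeR, where 288 of 6443 genes, 4.47%, were called, 1.38% higher as Hspa8 was. The call rested on 270 UMIs. It was lost without set P1117B (log2 fold 0.83, adjusted p = 0.17 by edgeR), with the set as a term (adjusted p = 0.14) and without 1-kidney replicate 1 or 2 or 2-kidney replicate 2, 3 or 4 (adjusted p from 0.0637 to 0.204). In the same cells Hsp90ab1 was at 551, 274 and 349 CPM against 220.0, 174, 193 and 255 CPM, with an adjusted p of 0.0609 by edgeR. Over the other 9 classes edgeR called no member, with 0 to 3 members at an unadjusted p under 0.05 in a class, where 8.03% to 18.7% of all genes were. The share of genes called by edgeR in those classes was 0.375% in connecting tubule, 0.0572% in distal convoluted tubule, 0.0452% in endothelium, 0.0488% in podocytes and 0% in intercalated cells, principal cells, proximal tubule, thick ascending limb and thin limb.

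**Figure D3:**
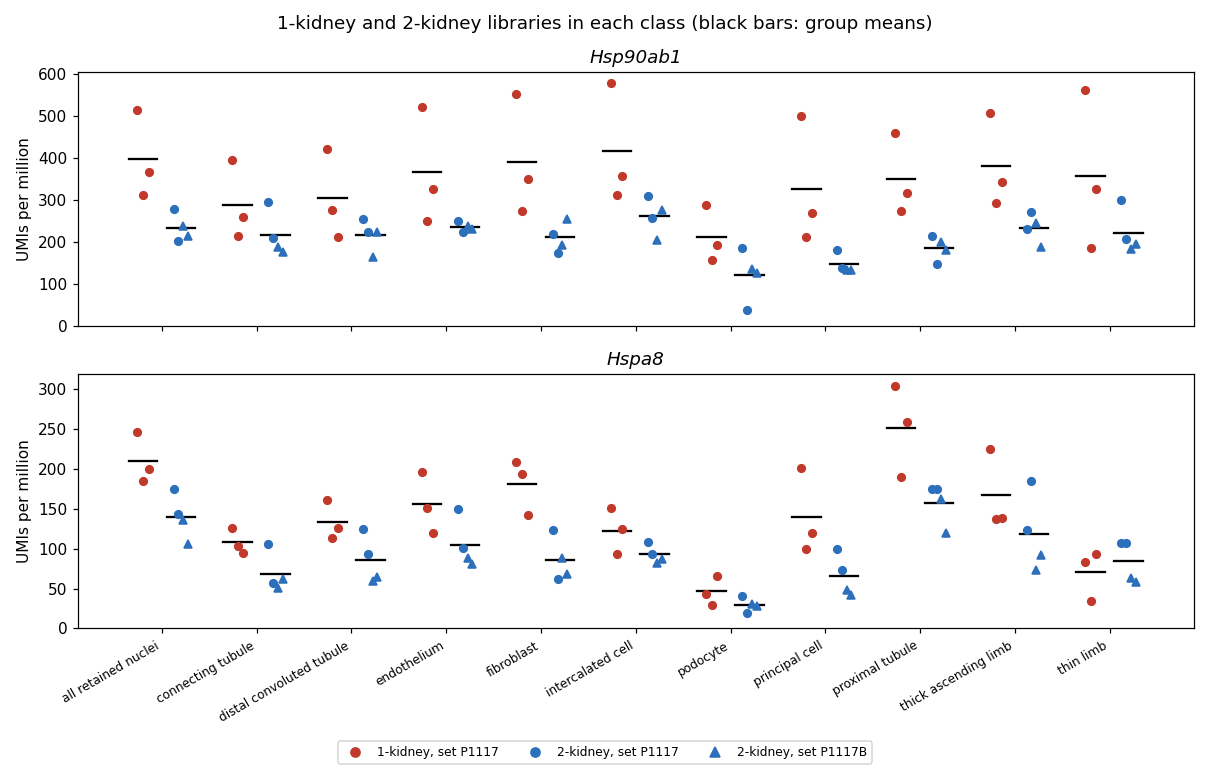
Hsp90ab1 (top) and Hspa8 (bottom) are plotted as CPM in all retained nuclei and in 10 classes, with a point per library, triangles for set P1117B and black bars for the means of the 3 1-kidney and 4 2-kidney libraries. For Hsp90ab1 the 1-kidney points lie above all 2-kidney points in 6 classes, and 1-kidney replicate 1 is the highest point in every class.

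Of the immediate early genes tested, Junb in the proximal tubule was the one whose groups did not overlap in a class. In intercalated cells, which secrete acid or base, Fos was at 26.0, 36.1 and 61.0 CPM in the 1-kidney libraries. In the 2-kidney libraries it was at 199.7, 93.5, 9.72 and 17.5 CPM, so the 2 sets stood on either side of the 1-kidney values. Its log2 fold was -0.73 ± 0.71 (SE) with all libraries. Without set P1117B it was -1.72 with an adjusted p of 0.0158 by edgeR, and with the set as a term -1.72 with an adjusted p of 0.0378. In these fits 3 and 2 genes were called in all. With all libraries but 2-kidney replicate 1, the highest, the log2 fold was 0.39, so the direction rests on that library. The class pooled 2 clusters, high in Slc4a1 or in Slc26a4, which differed in Fos, as given below. The Slc4a1-high cluster held 82, 101 and 148 nuclei in the 1-kidney libraries and 137, 134, 187 and 209 in the 2-kidney libraries. The Slc26a4-high cluster held 72, 137 and 105 against 92, 69, 136 and 115. The part of this mix in the Fos folds was not tested. In fibroblasts Fos reached 395 CPM in 1-kidney replicate 3 and 7.85 to 156 CPM in the other libraries, and its log2 fold of 1.18 ± 0.78 (SE) became -1.23 without that library. In podocytes Egr1 was at 148, 21.9 and 92.6 CPM against 36.8, 16.1, 30.5 and 29.2 CPM. The ranges overlapped.

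Across cell types, Hsp90ab1 was more even than Hspa8 and Hsph1. Its class means over 7 libraries ran from 161 ± 76.2 CPM in podocytes to 328 ± 120.0 CPM in intercalated cells (SD, n = 7), a 2.04-fold range, and no class differed from its neighbour in the order beyond the SD. Hspa8 was highest in the proximal tubule, at 198 ± 62.8 CPM, and lowest in podocytes, at 36.7 ± 15.1 CPM (SD, n = 7). Between them stood thick ascending limb (139), endothelium (126), fibroblasts (126), distal convoluted tubule (106), intercalated cells (106), principal cells (97.7), connecting tubule (85.6) and thin limb (78.2 CPM), each overlapping its neighbour. Hsph1 had the same 2 classes at its ends, at 129 ± 47.0 and 40.0 ± 11.7 CPM (SD, n = 7), and podocytes lay below principal cells (78.4 ± 22.2 CPM) beyond the SD. These SDs hold the spread between libraries, which the classes share, so an overlap does not show that 2 classes are alike. With the library as a block, as given below, thick ascending limb was lower than the proximal tubule in Hspa8 and Hsph1. In each of the 7 libraries the proximal tubule was above podocytes for Hspa8, Hsph1 and Hsp90ab1. Over all libraries the ratios were 5.16, 3.14 and 1.54, with 113, 131 and 476 UMIs in podocytes. Dnajb1 ran from 3.68 to 10.9 CPM and Hsp90aa1 from 2.87 to 7.10 CPM, on 7 to 110 and 8 to 151 UMIs in a class. With so few UMIs these 2 genes were not ranked against Hsp90ab1 for evenness.

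Of the 10 members, Fos, Atf3 and Egr1 had the widest ranges over classes, with highest class means 70.3, 44.6 and 15.3 times the lowest. The lowest Atf3 mean, in podocytes, was near the limit of detection, at 0 to 1.995 CPM over libraries. The size of the Atf3 ratio is therefore uncertain. Fos ran from 1.496 ± 1.44 CPM in the proximal tubule and 3.73 ± 3.67 in podocytes to 50.8 ± 39.8 in principal cells, 63.4 ± 66.6 in intercalated cells and 105 ± 138 CPM in fibroblasts (SD, n = 7). Egr1 was likewise lowest in the proximal tubule, at 9.74 ± 6.55 CPM. It was highest in intercalated cells, at 149 ± 91.5, followed by fibroblasts, at 141 ± 117, and thick ascending limb, at 89.4 ± 45.5 CPM (SD, n = 7). No neighbouring classes were apart by their SDs for either gene. Fibroblasts were above the proximal tubule in 7 of 7 libraries for Fos and for Egr1, and above endothelium in 7 of 7 for both. Atf3 had another pattern, highest in connecting tubule (22.9 ± 22.7), principal cells (20.6 ± 24.1), fibroblasts (16.2 ± 15.8) and thin limb (15.4 ± 14.7 CPM), and lowest in intercalated cells (1.10 ± 2.49) and podocytes (0.51 ± 0.89 CPM; SD, n = 7). Intercalated cells, high in Fos and Egr1, gave 4 UMIs of Atf3 in all. Jun was 2.38 times as high in the highest class, thin limb, as in the lowest, principal cells, and Junb 3.25 times as high in thick ascending limb as in proximal tubule. These class pairs were chosen after their values were seen.

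Related cells stood apart within the intercalated class. It was made of a cluster high in Slc4a1, the basolateral anion exchanger of acid-secreting type A cells, and a cluster high in Slc26a4, the pendrin of base-secreting cells. Egr1 in the Slc4a1-high cluster was at 209, 358 and 336 CPM in the 1-kidney libraries. In the 2-kidney libraries it was at 497, 300.5, 57.5 and 102 CPM. In the Slc26a4-high cluster of the same libraries it was at 0, 19.9 and 13 CPM and at 19.4, 23.1, 8.89 and 19.8 CPM. The ranges did not overlap, and over all libraries 485 UMIs stood against 26, a 14.6-fold difference in CPM. Fos was 5.87 times as high in the Slc4a1-high cluster, and higher in 6 of 7 libraries, with 195 and 26 UMIs. Hsp90ab1 was 1.21 times as high, and higher in 5 of 7. The pair was chosen after its values were seen and carries no test.

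Shares of nuclei gave the same order of the 2 intercalated clusters for Egr1 and Fos. When each nucleus was thinned to 1000 UMIs, 19.0% of the Slc4a1-high nuclei held an Egr1 UMI (5.62% to 38.8% over libraries), against 1.68% of the Slc26a4-high nuclei (0% to 3.36%). Without thinning the shares were 23.9% and 3.03%, at median depths of 1468.5 and 1875.5 UMIs. In the proximal tubule 0.796% of thinned nuclei held an Egr1 UMI, 2.16% without thinning, at a median depth of 3275. For Fos the thinned shares were 8.46% and 1.15% in the intercalated clusters, 4.97% in fibroblasts and 0.14% in the proximal tubule, where 22 of 6948 nuclei held a UMI. Unthinned, these were 11%, 2.34%, 6.12% and 0.317%. Thinning left out 25.7% of 1-kidney and 16.4% of 2-kidney nuclei as too shallow. Small classes outside the comparison were also high. Urothelium, with 157 nuclei, had 62 Fos UMIs, or 157 CPM over all libraries, and 28 of Atf3, or 70.8 CPM. Its nuclei were spread unevenly, with 9, 3 and 35 in the 1-kidney libraries and 31, 0, 37 and 42 in the 2-kidney libraries.

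**Figure D4:**
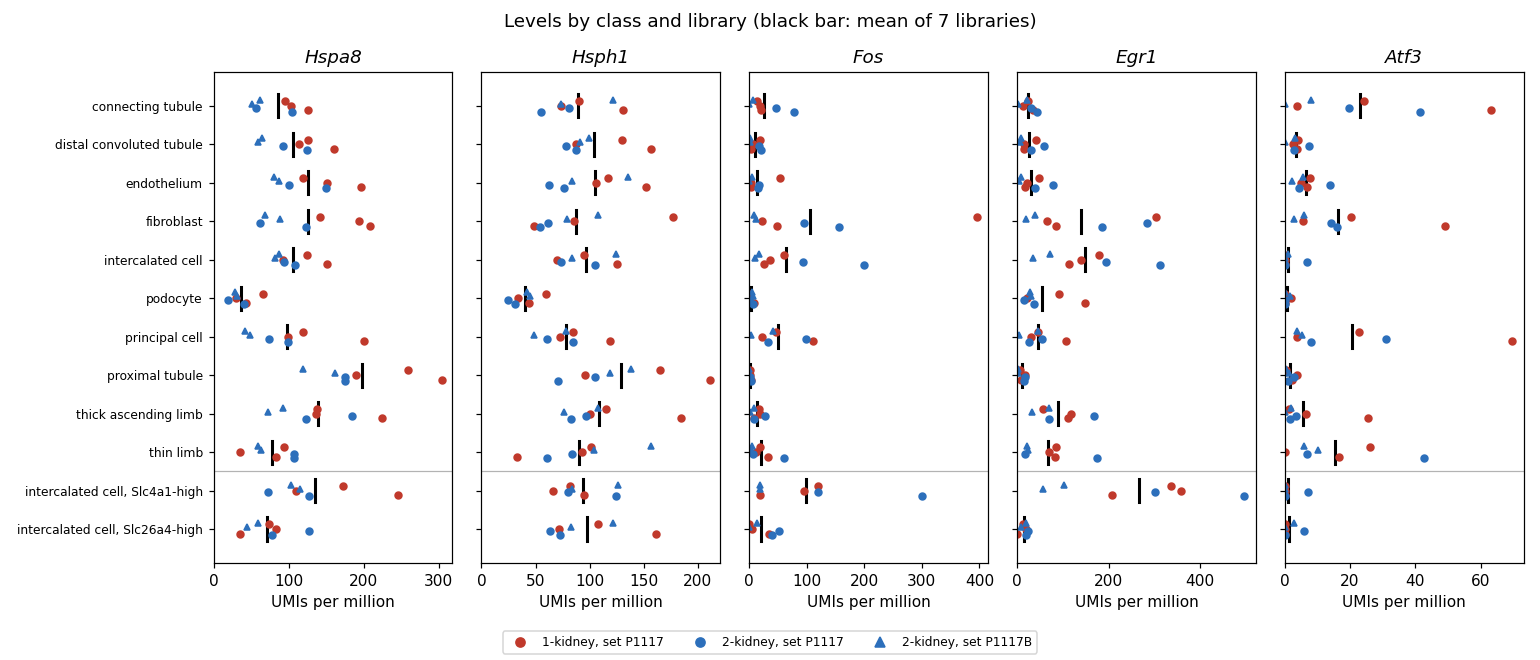
CPM of Hspa8, Hsph1, Fos, Egr1 and Atf3 are plotted in 10 classes and, under the grey line, in the 2 intercalated clusters, with a point per library, triangles for set P1117B and black bars for the mean of 7 libraries. Podocytes have the lowest mean of Hspa8 and Hsph1, the proximal tubule that of Fos and Egr1, and the 7 points of Egr1 in the Slc4a1-high cluster, 57.5 to 497 CPM, all lie above those of the Slc26a4-high cluster.

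Differences between classes of the same animals were tested for thick ascending limb and for endothelium, each against the proximal tubule with the library as a block. Since levels over cell types may have entered the choice of members, the p-values describe these libraries and are not independent support. The thick ascending limb class held 431 nuclei of a cluster led by Pappa2, Ptgs2 and Nos1, genes known from the macula densa, with no marker of the class among its top 10 genes. The thick ascending limb, the salt-reabsorbing segment of the loop of Henle, was higher in Fos (log2 fold 3.25 ± 0.48, SE), Egr1 (3.13 ± 0.22) and Junb (1.40 ± 0.24), and lower in Hspa8 (-0.76 ± 0.12) and Hsph1 (-0.49 ± 0.10). The adjusted p by edgeR was 1.2e-05 for Fos, 1.1e-09 for Egr1, 6.7e-05 for Junb, 2e-05 for Hspa8 and 0.000518 for Hsph1. These 5 of 9 members tested stood beside 60.6% of 11083 genes called in either direction, 28.3% higher and 32.3% lower, so being called was common. Without the Pappa2-led cluster, an alternative chosen after seeing the data, the same 5 were called beside 60.3% of genes, with log2 folds of 3.17 for Fos, 3.25 for Egr1, 1.54 for Junb, -0.69 for Hspa8 and -0.47 for Hsph1. Egr1 and Junb were higher in the thick ascending limb in 7 of 7 libraries. Hsp90ab1 had a log2 fold of 0.01 ± 0.09 (SE) and did not pass the test, nor did Hsp90aa1, Dnajb1 and Jun.

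Endothelium, the lining of blood vessels, was higher than the proximal tubule in Fos (log2 fold 3.13 ± 0.52, SE), Atf3 (1.90 ± 0.44), Egr1 (1.54 ± 0.23) and Jun (0.54 ± 0.13), and lower in Hspa8 (-0.83 ± 0.10) and Hsph1 (-0.46 ± 0.11). The adjusted p by edgeR was 2.7e-05 for Fos, 0.000969 for Atf3, 8.2e-06 for Egr1, 0.000874 for Jun, 4.9e-07 for Hspa8 and 0.00124 for Hsph1. The 6 of 10 members called stood beside 58% of 11037 genes, 28.6% higher and 29.4% lower. Hsp90ab1 again was near 0, at 0.03 ± 0.08 (SE). Both comparisons use the same proximal tubule sums, so they are not separate evidence for Hspa8, Hsph1, Fos or Egr1. Without the library block fewer members and a smaller share of all genes were called in both comparisons, as given in the last section.

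**Figure D5:**
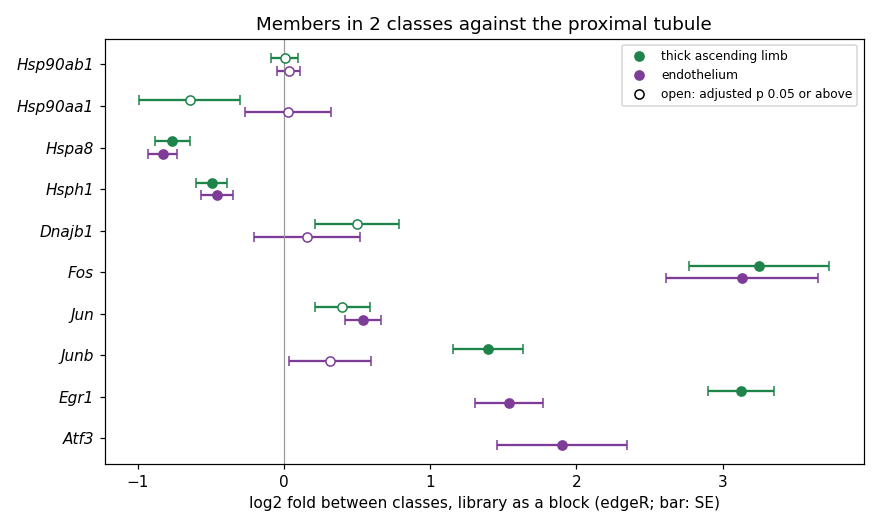
The log2 fold of each gene in thick ascending limb and in endothelium against the proximal tubule is plotted with its SE, with filled points where the adjusted p by edgeR was under 0.05. Fos lies above 3 in both, Hspa8 and Hsph1 lie below 0 in both, Hsp90ab1 sits near 0, and Atf3 was not tested in thick ascending limb, where it had 22 UMIs.

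Other genes of both groups, from 3 lists, were set beside the members. Between 1-kidney and 2-kidney libraries, edgeR called 0 of 33 other chaperones and co-chaperones tested, 0 of 8 subunits of the chaperonin TRiC and 0 of 33 other immediate early and early response genes in all retained nuclei. Before adjustment 6, 3 and 10 of them had a p under 0.05, beside 20.5% of all genes, and DESeq2, which called 485 genes or 3.25%, called Cct6a, a TRiC subunit, and Btg2, an antiproliferative early gene. Their median log2 folds were 0.08, 0.29 and -0.06, beside 0.50 for the members and -0.01 for all genes. The members were chosen with this comparison known, so nothing is read from their median. In the 10 classes edgeR and DESeq2 also called 0 genes of the 3 lists. Before adjustment 0 to 5 genes of a list had a p under 0.05 by edgeR, beside 8.03% to 21.3% of all genes. TRiC subunits had 5 of 8 in proximal tubule (16.3% of all genes) and 4 of 8 in thick ascending limb (14.3%). They had 0 in connecting tubule, endothelium, intercalated cells, podocytes and thin limb. Early genes had 5 of 10 in connecting tubule (18.5%) and 5 of 15 in principal cells (18.7%). They had 0 in intercalated cells and thick ascending limb. Hsf1, the heat shock factor, was at 21.3 to 25.6 CPM in the 1-kidney and 22.2 to 37.1 CPM in the 2-kidney libraries. Stip1, which joins HSP70 to HSP90, was at 81.2, 59.2 and 72.3 CPM against 48.7, 51.4, 52.3 and 57.6 CPM, with no overlap and a log2 fold of 0.45 ± 0.15 (SE). Of the 33 other chaperones and co-chaperones, 5 did not overlap with the 1-kidney group higher and 1 with it lower. For TRiC subunits it was 2 and 0 of 8, and for early genes 1 and 3 of 33. Of all genes tested 8.06% were higher in this way and 10.7% lower. Bag3, a co-chaperone of HSP70, was at 52.1 to 53.7 against 42.2 to 55.5 CPM. Hspa1b, the heat-inducible HSP70, was near the limit of detection in every library, at 0.364 to 1.25 CPM.

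Among early genes, Nr4a1, an orphan nuclear receptor, was at 4.66, 5.19 and 7.39 CPM against 14.4, 20.03, 6.52 and 8.76 CPM, a log2 fold of -1.05 ± 0.38 (SE). Dusp1, a phosphatase of MAP kinases, was at 7.52 to 12.6 against 8.35 to 17.1 CPM. Zfp36, which destabilises messages, was at 34.3 to 41.4 against 14.7 to 38.1 CPM. Jund was at 15.6 to 22.1 against 9.97 to 25 CPM, and Fosb at 0.306 to 2.32 against 0.081 to 4.41 CPM. All of these ranges overlapped.

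In thick ascending limb against proximal tubule, edgeR called 12 of 26 early genes higher and 8 lower, beside 28.3% and 32.3% of all genes. Those higher, by log2 fold, were Cebpd (3.63), Gadd45b (3.60), Nr4a1 (3.14), Ier3 (2.57), Gadd45g (2.13), Nr4a2 (1.33), Nfkbia (1.26), Dusp1 (1.17), Klf6 (0.85), Klf10 (0.80), Srf (0.66) and Jund (0.54). Those lower were Ccn2 (-2.33), Myc (-1.24), Dusp5 (-1.21), Klf4 (-0.87), Ccn1 (-0.84), Cebpb (-0.84), Maff (-0.75) and Zfp36 (-0.51). Early genes thus did not all go the way of Fos and Egr1. Of 28 other chaperones and co-chaperones, 3 were higher, namely Hspb6 (1.22), Hspa4l (0.76) and Unc45a (0.67). The 10 lower ones were Cryab (-2.0), Bag3 (-1.63), Dnaja1 (-1.13), Hsf2 (-1.06), St13 (-0.96), Dnajb5 (-0.76), Dnaja4 (-0.75), Ppid (-0.51), Chordc1 (-0.37) and Ptges3 (-0.30). Of 8 TRiC subunits Cct2 (-0.51), Cct3 (-0.47) and Cct6a (-0.36) were lower.

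In endothelium against proximal tubule, 14 of 26 early genes were called higher and 6 lower, beside 28.6% and 29.4% of all genes. Klf2, a factor induced by blood flow, had a log2 fold of 6.58. The other higher ones were Nfkbia (2.58), Nr4a1 (2.58), Dusp1 (2.12), Klf4 (2.00), Klf6 (1.64), Ier5l (1.63), Klf10 (1.53), Btg2 (1.34), Nr4a2 (1.26), Fosl2 (1.01), Srf (0.60), Dusp6 (0.57) and Per1 (0.30), and the lower ones Myc (-1.12), Maff (-1.04), Ccn2 (-0.90), Cebpb (-0.79), Gadd45a (-0.57) and Gadd45g (-0.42). Of 27 other chaperones and co-chaperones Sugt1 (0.45) was higher. The 11 lower ones were Cryab (-2.99), Ahsa1 (-0.69), Hspbp1 (-0.65), St13 (-0.62), Stip1 (-0.43), Dnaja2 (-0.43), Hsf2 (-0.37), Chordc1 (-0.36), Bag3 (-0.34), Dnaja1 (-0.29) and Hspa4 (-0.27). Of 8 TRiC subunits Cct4 (0.42) was higher. Over all genes the median log2 fold was -0.03 in each of these comparisons.

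Among the members, levels moved together in some pairs and not in others. Over 70 points, the 10 classes in 7 libraries with each class centred on its own mean, Pearson's r of log2(CPM + 1) was 0.84 for Fos and Egr1, 0.76 for Hsp90ab1 and Hspa8, and 0.63 for Hspa8 and Jun. It was 0.35 for Hsp90ab1 and Fos, -0.05 for Hsph1 and Fos, and -0.10 for Hsp90ab1 and Hsp90aa1. Hsp90aa1, with 786 UMIs in all, had values of -0.12 to 0.18 with every other member. Among 9287 genes, those most like Hsp90ab1 included Mtdh (0.78) and Prrc2a (0.78). Those most like Fos were Egr1 (0.84), Kmt2e (0.70) and AABR07059663.1 (0.66), a locus with no gene name. Points of 1 library share its depth, set and tissue piece, so these correlations are descriptions with no test.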

How the data were processed

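The authors deposited 10x matrices of 7 libraries, whose values are raw UMI counts (whole numbers); per the submitters' processing notes Cell Ranger 7.0 was used, and the labels name no genome build. The members and gene lists were chosen with earlier results of these data known. Kept barcodes had 200 or more genes and 5% or less mitochondrial UMIs. The automatic threshold of Scrublet marked 0 to 4 barcodes per library and had not worked, so the highest scores were removed at 0.8% per 1000 barcodes, which left 31227 of 37048. Clustering (scanpy 1.11.5, 2000 variable genes without 89 members and pathway genes, 30 components, 20 neighbours, leidenalg 0.10.2 at resolution 1) gave 23 clusters. A cluster was named when 3 or more markers were 2-fold above other nuclei and its leading marker 4-fold. This rule was changed, and Leiden run to convergence, after clusters had been seen. A second pass against named clusters only, which named the Slc7a13-high proximal tubule cluster, was added after member levels had been seen. Unnamed nuclei, 5770 with 45.2% of UMIs, entered only the sums over all nuclei. The largest unnamed cluster had a median of 10455 UMIs, and doublets may remain.

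Counts were summed per library and class (50 or more nuclei in each library) and tested with edgeR 4.0.16 in R 4.3.3 (quasi-likelihood, TMM factors, filterByExpr, two-sided, Benjamini-Hochberg over all genes tested, threshold 0.05), in a script tested on simulated counts. Each library was taken as 1 animal, from the group sizes in the labels. Tests between the groups set a difference against the spread between these libraries. Tests between classes set it against the spread left after the library block. Alternatives were DESeq2 1.42.0, RLE factors, no filter on low counts, the set left out or as a term, clustering with the members, predicted doublets kept, each library left out, single clusters of a class and the thick ascending limb without its Pappa2-led cluster (chosen after seeing the data) and, between classes, no library block. Genes named are the members, list genes past the threshold, 9 fixed list examples, and the 3 genes most correlated with Hsp90ab1 and with Fos among those at a mean of 10 CPM or more; 1 of these genes is not reported here. Cct6a and Btg2 were named after their values were seen.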

Additional observations from a re-analysis of the deposited data

Results flagged for a closer look

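In 3 of 65 groups of 4 2-kidney libraries examined, 1 library lay far from the other 3; about 1 group in 20 does so by chance. Groups with under 100 UMIs of a gene were not examined. Hsp90ab1 in principal cells was at 182 CPM in 2-kidney replicate 1 and at 133 to 139 in the other libraries. Hsp90aa1 in the proximal tubule was at 5.69 CPM in 2-kidney replicate 3 and at 4.63 to 4.798 in the others. Egr1 in thin limb was at 174 CPM in 2-kidney replicate 1 and at 16.8 to 22.8 in the others, and its log2 fold between the groups went from 0.58 ± 0.67 (SE) to 1.93 without that library.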

How the results depend on the processing

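No paired analysis was possible because the labels give the 1-kidney and 2-kidney animals no shared replicate numbers; between classes of the same animals the library was the block. With no replicate block 3 members were called in thick ascending limb against proximal tubule in place of 5 (Hspa8, Junb and Egr1, beside 49.2% of all genes). In endothelium against proximal tubule 2 were called in place of 6 (Hspa8 and Egr1, beside 46.3%). Leaving out each library gave 5 to 6 members in both, beside 6033 to 6699 genes in thick ascending limb and 5956 to 6577 in endothelium. In the 1-kidney comparison, DESeq2 called 2 members in all nuclei (beside 3.25% of all genes), 2 in fibroblasts (4.38%), 1 in principal cells (2.2%) and 1 in proximal tubule (1%). With no filter on low counts it was 1 in distal convoluted tubule (Jun; 0.973%), 1 in endothelium (Fos; 1.32%), 2 in fibroblasts (Hspa8 and Fos; 2.81%) and 2 in principal cells (Hsp90ab1 and Hspa8; 3%). Without set P1117B it was 1 in connecting tubule (Fos; 0.372%), 0 in fibroblasts (4.18%) and 1 in intercalated cells (Fos; 0.0422%). With the set as a term it was 0 in fibroblasts (3.32%) and 1 in intercalated cells (Fos; 0.0269%). Leaving out each library gave 0 to 1 in connecting tubule, 0 to 2 in distal convoluted tubule and 0 to 1 in fibroblasts, where the higher counts of the first 2 came without 2-kidney replicate 1 (3.22% and 3.18% of all genes), and 0 in the other classes and in all nuclei. In fibroblasts these fits called 14 to 346 genes. Over all alternatives, the number of genes called was 0 to 485 in all nuclei (0 as reported), 14 to 462 in fibroblasts (288), 0 to 227 in connecting tubule (26), 0 to 220 in distal convoluted tubule (4), 0 to 498 in principal cells (0) and 0 to 231 in the other classes. The causes were not tested. Of 956 alternative folds of members between the groups, 850 kept their sign, and of 246 between classes, 229 did. Members with few UMIs per class, such as Hsp90aa1 and Dnajb1, could not be tested in most classes.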
